A study of Mus musculus with 12 samples.

Results

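The genes described here encode the receptors of the gp130 cytokine family and the Jak and Stat3 proteins that act below them. They were 9 genes: the receptor subunits Osmr, Il6st, Lifr, Cntfr and Il6ra, the kinases Jak1 and Jak2, the transcription factor Stat3 and its feedback inhibitor Socs3. Each was taken from an array row annotated to that symbol alone, and each of the 9 had exactly 1 such row among 30184 symbols with a row of their own. Of the 9 genes, 7 were among the 12566 genes with a log2 signal above the minimum of the study's methods on at least 1 array, which were the genes tested. Il6ra and Socs3 lay below that minimum on every array.

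RNA of frozen mouse cortex was hybridised to Clariom D arrays, which read transcripts by sets of short probes. Tg mice (rTg4510) carry a tetracycline-controlled transactivator, tTA, driven by the Camk2a promoter, which switches on a human mutant tau transgene in forebrain neurons. Doxycycline in the feed turns that transgene off. In the paper, this feed lowered total tau on immunoblots but did not remove it. Non mice were nontransgenic littermates, and both genotypes were on the FVB/NJ background. The 4 groups were Tg + Dox (3 arrays, 1 male and 2 female), Tg + Veh (3 arrays, 2 male and 1 female), Non + Dox (2 arrays, both male) and Non + Veh (3 arrays, 1 male and 2 female). Dox groups received 200 ppm doxycycline for 35 days, beginning at 3.5 months of age, and Veh groups received normal feed over the same days. The comparison of Tg + Veh with Non + Veh asks what tau expression does. That of Tg + Dox with Tg + Veh asks what tau suppression does. That of Non + Dox with Non + Veh asks what the drug does without the transgene. Tg and Non mice also differ by tTA and by the insertions themselves, and Tg + Dox and Tg + Veh also differ by the drug. The part of tau alone was not tested.

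Cytokines of the interleukin-6 family, among them interleukin-6, oncostatin M, leukemia inhibitory factor and ciliary neurotrophic factor, bind receptor complexes that contain gp130, the product of Il6st. Jak kinases held by these receptors phosphorylate Stat3, which enters the nucleus and switches on genes that include Socs3, and the Socs3 protein then blocks the kinases. In the injured or diseased brain, this pathway is known for its part in the reaction of astrocytes, which raise the intermediate filament proteins Gfap and Vim.

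Several facts of the whole series bear on the values. A further female Tg + Veh array, replicate 4, failed the quality control of the study's methods and was left out of the tests. Its median log2 signal was 5.65, against 5.54 to 5.59 on the other 11 arrays, and its values are given for the genes called, for Il6st and for the lists of glial markers. Fgf14, the gene that the tau transgene interrupts, followed the labels, at 10.85 to 11.34 on Tg arrays and 12.01 to 12.29 on Non arrays. Esyt2, Ptprn2 and Wdr60, which lie where tTA is inserted, went against the labels on 2 Non arrays. Esyt2 was at 9.45 to 9.74 on Tg arrays, at 9.60 and 9.61 on Non + Veh 3 and Non + Dox 2, and at 10.86 to 11.23 on the other Non arrays. The 2 arrays were kept under their labels, and the calls named are also given without them. For genes other than the 9, these fits were chosen after the data were seen. The samples were whole cortex, so fewer cells of a type and less RNA per cell cannot be told apart.

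The bases before the start sites are shown for Osmr, Il6st and Stat3, whose signals separated Tg + Veh from Non + Veh, and for Socs3, the gene known as a direct Stat3 target. The sequences are those of RefSeq on mouse build GRCm38.p6, 5′ to 3′ on the strand of the gene, and the starts are those of its promoter windows. For Osmr, Stat3 and Socs3 this start lies inside the gene span given below, and for Il6st it is the first base of the span. Capitals mark GGGCGG, the core of a GC box, on either strand, and TTCNNNGAA, the palindrome of a Stat site. The first 3 stretches end at the base before the start, and the stretch of Socs3 runs from 200 to 101 bases before its start.
Osmr, chr15:6874314-6874413, minus strand: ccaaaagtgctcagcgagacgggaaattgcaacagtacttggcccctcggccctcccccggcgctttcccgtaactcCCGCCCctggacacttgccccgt
Il6st, chr13:112463970-112464069, plus strand: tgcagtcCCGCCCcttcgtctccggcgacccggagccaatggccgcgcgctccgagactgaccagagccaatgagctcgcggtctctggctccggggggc
Stat3, chr11:100939541-100939640, minus strand: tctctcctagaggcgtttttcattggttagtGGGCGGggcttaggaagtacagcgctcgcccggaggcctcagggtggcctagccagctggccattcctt
Socs3, chr11:117969467-117969566, minus strand: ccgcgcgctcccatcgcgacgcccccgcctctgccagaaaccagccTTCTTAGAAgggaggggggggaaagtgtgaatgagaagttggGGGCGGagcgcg

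All 9 genes matched RefSeq promoter windows of 300 bases (250 before to 50 after a start), with 15 windows in all since Lifr and Cntfr have several starts. TTCNNNGAA was found in 1 of the 15 windows, that of Socs3, with its first base 154 bases before the start, and in 8.3% of the 32851 windows of all genes. GGGCGG was found in 11 of the 15 windows and in 35.66% of all windows. The windows of Osmr, Il6st, Stat3 and Socs3 held 66.0%, 68.3%, 60.7% and 73.3% G and C, with a median of 52.7% over all windows. The 2 motifs do not overlap each other in the stretches shown. A match is a run of letters and was not tested as a binding site.

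In the cortex of tau transgenic mice on normal feed, Osmr and Stat3 rose, Il6st lay higher on every array without passing the test, and the other 4 genes tested differed little. Of the 7 genes tested, 2 rose and 0 fell in Tg + Veh over Non + Veh at an adjusted p under 0.05 from limma. Over all 12566 genes, 2.00% were called, with 1.86% of all genes called as higher and 0.135% as lower. All 7 were higher in Tg + Veh, with a median log2 difference of 0.17, against a median of 0.02 over all genes tested. Of all genes tested, 59.4% were higher. Lifr, Cntfr and Jak1 lay near 0, and each changed sign in some of the other fits given below. For 3 of the 7, Osmr, Il6st and Stat3, the arrays of Tg + Veh and Non + Veh did not overlap, against 18.7% of all genes tested.

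**Figure D1:**
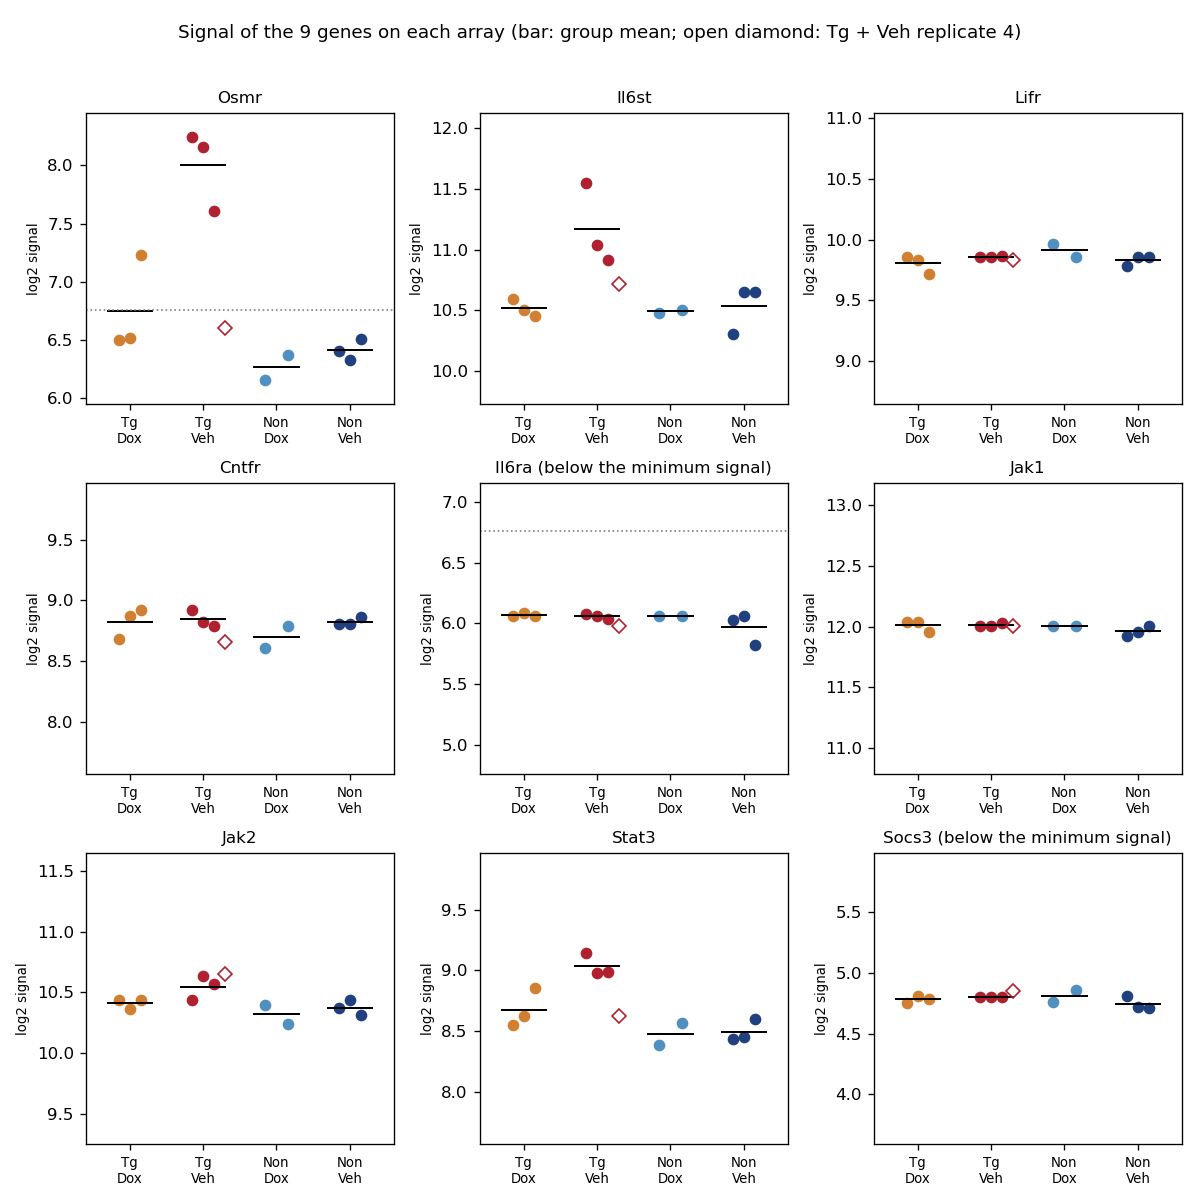
Log2 signal of each of the 9 genes (vertical axis) on each array of the 4 groups (horizontal axis), with bars at the group means, an open diamond for Tg + Veh replicate 4, which was not used in the means, and a dotted line at the minimum signal. Osmr, Il6st and Stat3 lay above every Non + Veh array on the 3 Tg + Veh arrays, whereas Lifr, Cntfr, Jak1, Il6ra and Socs3 stayed within a narrow band.

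Osmr encodes the receptor subunit that pairs with gp130 to bind oncostatin M. Its transcript cluster, TC1500001167.mm.1, belongs to a gene at chr15:6813568-6874968 (GRCm38.p6). Its log2 signal was 6.50, 6.52 and 7.23 on the Tg + Dox arrays, 8.24, 8.16 and 7.61 on the Tg + Veh arrays, 6.16 and 6.37 on the Non + Dox arrays and 6.41, 6.33 and 6.51 on the Non + Veh arrays. All 3 Tg + Veh arrays lay above every other array, and Tg + Dox 3 stood apart from the other Tg + Dox arrays, toward Tg + Veh. Replicate 4 of Tg + Veh, at 6.61, was among the Tg + Dox arrays and above each Non + Veh array.

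The mean of Osmr was 6.75 ± 0.418 in Tg + Dox (SD, n = 3), 8.00 ± 0.343 in Tg + Veh (SD, n = 3), 6.26 ± 0.155 in Non + Dox (SD, n = 2) and 6.41 ± 0.0874 in Non + Veh (SD, n = 3). The log2 difference of Tg + Veh over Non + Veh was 1.59 (SE 0.217, 95% CI 1.10 to 2.08), a 3.01-fold rise, at an adjusted p of 0.0101 from limma. It ranked 25 by size among the 12566 genes. Osmr passed the minimum signal on 4 of 11 arrays, all Tg, so its place among the genes tested depended on the arrays where it was high; without that filter, its adjusted p was 0.0233. With replicate 4 included, the log2 difference was 1.24 (adjusted p = 0.200). Without the 2 Non arrays that were low at the tTA insertion it was 1.63 (adjusted p = 0.0548), and without Non + Veh 2 it was 1.55 (adjusted p = 0.0530).

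Il6st encodes gp130 itself, the signalling subunit shared by the whole receptor family (TC1300001265.mm.1, chr13:112464070-112506860). Its log2 signal was 10.60, 10.50 and 10.45 on the Tg + Dox arrays, 11.55, 11.04 and 10.91 on the Tg + Veh arrays, 10.48 and 10.50 on the Non + Dox arrays and 10.30, 10.65 and 10.65 on the Non + Veh arrays. Tg + Veh again held the 3 highest values, but they spread over 0.64 log2 units, with Tg + Veh 1 far above the other 2. The log2 difference of Tg + Veh over Non + Veh was 0.63 (SE 0.157, 95% CI 0.28 to 0.99), or 1.55-fold, at an adjusted p of 0.0950, which did not pass. Replicate 4 was at 10.72, above every Non + Veh array, and with it the difference was 0.52 (adjusted p = 0.243). Without the 2 Non arrays low at the tTA insertion it was 0.69 (adjusted p = 0.177).

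Stat3, the transcription factor at the end of the pathway (TC1100003790.mm.1, chr11:100886806-100939594), had a log2 signal of 8.55, 8.62 and 8.86 on the Tg + Dox arrays and 9.14, 8.98 and 8.99 on the Tg + Veh arrays. It was 8.39 and 8.57 on the Non + Dox arrays and 8.43, 8.45 and 8.60 on the Non + Veh arrays. As for Osmr, the 3 Tg + Veh arrays were above all others and Tg + Dox 3 was the highest of the rest. Stat3 rose by 0.54 in Tg + Veh over Non + Veh on the log2 scale (SE 0.0916, 95% CI 0.34 to 0.75), or 1.46-fold, with an adjusted p of 0.0232. With replicate 4, at 8.63, the difference was 0.44 (adjusted p = 0.178), and without the 2 Non arrays low at the tTA insertion it was 0.60 (adjusted p = 0.0541). The call was also lost when Tg + Veh 1, Tg + Veh 2, Non + Veh 1 or Non + Veh 2 was left out, with a highest adjusted p of 0.103.

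Jak2, a kinase that docks on gp130 and on many other cytokine receptors (gene at chr19:29251803-29313095), had a log2 signal of 10.44, 10.36 and 10.44 on the Tg + Dox arrays, 10.44, 10.64 and 10.57 on the Tg + Veh arrays, 10.40 and 10.24 on the Non + Dox arrays and 10.37, 10.44 and 10.31 on the Non + Veh arrays. The Tg + Veh and Non + Veh arrays met at 10.44, a value that 4 of the 11 arrays shared. The log2 difference of 0.17 had an adjusted p of 0.283.

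Jak1, the kinase on which gp130 signalling mainly depends (chr4:101151974-101265282), spanned only 11.92 to 12.04 over the 11 arrays, and 5 of them shared the value 12.01. Its difference of Tg + Veh over Non + Veh was 0.05 (95% CI −0.04 to 0.14, adjusted p = 0.589). Lifr, the receptor subunit for leukemia inhibitory factor (chr15:7090610-7197489), spanned 9.72 to 9.97, and 6 arrays shared the value 9.86. Its difference was 0.03 (95% CI −0.08 to 0.14, adjusted p = 0.850). Cntfr, which binds ciliary neurotrophic factor and is anchored to the membrane by a lipid (chr4:41657498-41697091), spanned 8.61 to 8.92 and differed by 0.02 (95% CI −0.15 to 0.19, adjusted p = 0.938). These 3 intervals reach no further than 0.19 log2 units from 0.

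Equal values on several arrays were frequent in this table. Of the genes tested, 60.6% had a value that recurred over the 11 arrays and 17.8% had the same value on 5 or more. Jak1 and Lifr were among those with 5 or more equal values, which enter their spread between arrays.

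Il6ra, which binds interleukin-6 (chr3:89869324-89913196), was at 5.82 to 6.09 on the 11 arrays, and Socs3 (chr11:117966079-117970336) was at 4.71 to 4.86. In a fit without the filter on low signal, the log2 difference of Tg + Veh over Non + Veh was 0.09 for Il6ra (adjusted p = 0.702) and 0.06 for Socs3 (adjusted p = 0.724). Tg + Dox over Tg + Veh gave 0.01 (adjusted p = 0.962) and −0.02 (adjusted p = 0.888). Whether either transcript was read above background was not tested, and no change of these 2 genes was detectable at this signal.

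When Tg mice received doxycycline, Osmr fell. Il6st and Stat3 lay lower on every Tg + Dox array than on any Tg + Veh array without passing the test. Of the 7 genes tested, 0 rose and 1, Osmr, fell in Tg + Dox over Tg + Veh, against 0.692% of all genes called, 0.613% as lower and 0.0796% as higher. All 7 were lower in Tg + Dox, with a median log2 difference of −0.13, against −0.02 over all genes tested. Of all genes tested, 43.0% were higher in this comparison. Cntfr and Jak1 lay near 0, and both changed sign in some of the other fits given below. Groups without overlap, as those of Osmr, Il6st and Stat3 were, made up 17.1% of all genes tested. This comparison shares its 3 Tg + Veh arrays with that of tau expression, so a high value on them moves both results in opposite directions and the second is no independent check of the first.

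In cortex with suppressed tau, Osmr fell by 1.25 on the log2 scale against Tg + Veh (SE 0.217, 95% CI −1.74 to −0.76), a 2.38-fold difference, with an adjusted p of 0.0447. The call was near its threshold and was kept in only 2 of the 11 fits that each left out 1 array, those without Tg + Veh 3 or Tg + Dox 3. Over these fits the difference lay between −1.49 and −1.13 and the adjusted p between 0.0133 and 0.129. With replicate 4 the difference was −0.90 (adjusted p = 0.231), and without the 2 Non arrays low at the tTA insertion the adjusted p was 0.127. Osmr crossed the minimum signal on Tg arrays alone, and without that filter its adjusted p was 0.0956, so the call was lost. The groups were also unequal in sex. With sex as a term the difference was −1.24 (adjusted p = 0.0793), and the call was lost. The rise of Osmr in Tg + Veh over Non + Veh kept its call with that term (adjusted p = 0.0271).

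Il6st had a log2 difference of −0.65 (SE 0.157, adjusted p = 0.103), and no fit that left out an array brought it past the threshold. With replicate 4 it was −0.54 (adjusted p = 0.189). Stat3 had a difference of −0.36 (SE 0.0916, adjusted p = 0.115), which passed only without Tg + Dox 3, at −0.45 and an adjusted p of 0.0481. With replicate 4 it was −0.26 (adjusted p = 0.293). Jak2 differed by −0.13 (adjusted p = 0.344), Lifr by −0.06 (adjusted p = 0.611), Cntfr by −0.02 (adjusted p = 0.913) and Jak1 by −0.0019 (adjusted p = 0.987).

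**Figure D2:**
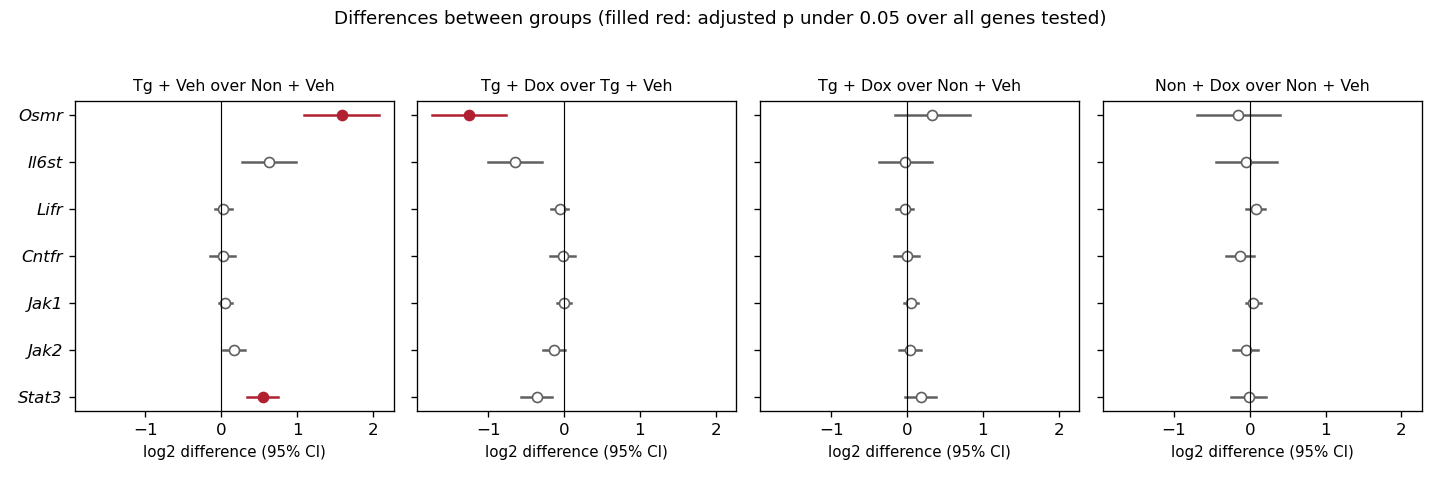
Log2 difference (horizontal axis, with 95% confidence intervals from limma) of the 7 genes tested in 4 comparisons, filled red where the adjusted p over all genes tested was under 0.05. Osmr and Stat3 pass in Tg + Veh over Non + Veh and Osmr in Tg + Dox over Tg + Veh, while the intervals of all 7 genes span 0 in Tg + Dox over Non + Veh and in Non + Dox over Non + Veh.

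After suppression, no gene of the 9 was called different from untreated Non cortex. In Tg + Dox over Non + Veh, 0 of the 7 genes tested passed, 0 had an unadjusted p under 0.05 in limma, and no gene separated its arrays, against 0.00796% of all genes called and 12.6% without overlap. Osmr had a log2 difference of 0.34 (95% CI −0.16 to 0.83, adjusted p = 0.654), Stat3 of 0.18 (95% CI −0.02 to 0.39, adjusted p = 0.569) and Il6st of −0.02 (95% CI −0.37 to 0.34, adjusted p = 0.985). The intervals of Osmr and Stat3 leave room for a remaining difference of up to 0.83 and 0.39, so a full return to the Non level was not shown. Without Tg + Dox 3, Osmr differed by 0.095 and Stat3 by 0.093.

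Against Non + Dox, which holds 2 male arrays, Osmr was higher on all 3 Tg + Dox arrays, without overlap, at a log2 difference of 0.49 (95% CI −0.06 to 1.04, adjusted p = 0.850). No other gene of the 7 separated its arrays there, against 15.2% of all genes tested, and 0 were called, as over all genes. Without Tg + Dox 3 the difference of Osmr was 0.24. Stat3 differed by 0.20, and by 0.11 without Tg + Dox 3 or without Non + Dox 1, and Il6st differed by 0.02.

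The drug without the transgene gave no call. In Non + Dox over Non + Veh, 0 of the 7 genes passed, as did 0 of all genes tested, and 0 had an unadjusted p under 0.05. Osmr differed by −0.15 (95% CI −0.70 to 0.40, adjusted p = 0.888), Il6st by −0.04 (adjusted p = 0.971) and Stat3 by −0.01 (adjusted p = 0.996). Cntfr was at 8.61 and 8.79 on the Non + Dox arrays and at 8.81 to 8.86 on the Non + Veh arrays. That is the only gene of the 7 without overlap, a pattern held by 24.8% of all genes tested in this comparison of 2 arrays with 3, and its difference of −0.12 did not pass (adjusted p = 0.648). Both Non + Dox arrays were male, so feed and sex cannot be fully told apart here.

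Averaged over both feeds, Tg over Non, Osmr rose by 1.04 on the log2 scale (SE 0.163, adjusted p = 0.0297), the only one of the 7 genes to pass, against 0.812% of all genes tested, 0.716% as higher and 0.0955% as lower. That call was kept in 4 of the 11 fits that left out 1 array (adjusted p up to 0.112) and was lost with replicate 4, at 0.86 (adjusted p = 0.361), and without the 2 Non arrays low at the tTA insertion, at 1.11 (adjusted p = 0.111). Stat3 differed by 0.37 with an adjusted p of 0.0504, Il6st by 0.33 (adjusted p = 0.303) and Jak2 by 0.13 (adjusted p = 0.320). The difference between the feed effects themselves, Dox over Veh in Tg minus Dox over Veh in Non, was −1.10 for Osmr (SE 0.326, unadjusted p = 0.00811 from limma, adjusted p = 0.477), −0.61 for Il6st (adjusted p = 0.588) and −0.35 for Stat3 (adjusted p = 0.590). Of the 7 genes, 3 had an unadjusted p under 0.05 from limma there: Osmr, Il6st and Stat3. By that p they ranked 208, 634 and 694 among all genes tested. The share of all genes under that cut was not counted for this difference, so whether 3 of 7 is unusual was not tested. At the adjusted p, 0 of the 7 passed, as did 0 of all genes tested. It is therefore not shown that doxycycline acted differently in Tg and Non cortex on any of these genes.

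The ligands of the family gave little signal. Of 11 ligand and ligand partner genes, 9 had a row of their own and 1 was tested. That gene was Ctf1, which encodes cardiotrophin-1, at 7.74 to 8.08 in Tg + Dox, 7.84 to 7.92 in Tg + Veh, 7.62 and 7.91 in Non + Dox and 7.39 to 7.84 in Non + Veh. It differed by 0.18 in Tg + Veh over Non + Veh (adjusted p = 0.594) and by 0.05 when Tg + Dox was set against Tg + Veh (adjusted p = 0.899). The other 8, Il6, Il11, Il27, Ebi3, Lif, Osm, Ctf2 and Clcf1, stayed below the minimum, with highest values between 3.54 and 5.17. Osm, the ligand of Osmr, lay between 4.10 and 4.28 on all arrays, and Il6 between 3.69 and 4.06.

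Among 11 other receptors that signal through Stat3, 10 had a row and only Csf3r, the receptor for granulocyte colony-stimulating factor, was tested. Csf3r was at 6.40 to 6.93 on the Tg + Dox arrays, 7.21 to 8.04 on the Tg + Veh arrays, 6.06 and 6.39 on the Non + Dox arrays and 6.25 to 6.36 on the Non + Veh arrays. Like Osmr, it crossed the minimum signal on Tg arrays alone. It rose by 1.26 on the log2 scale in Tg + Veh over Non + Veh (SE 0.209, adjusted p = 0.0212), with an adjusted p of 0.0474 where no filter was set. Replicate 4 of Tg + Veh was at 6.64, and with it the difference of Csf3r was 1.03 (adjusted p = 0.171). The call was also lost without the 2 Non arrays low at the tTA insertion (adjusted p = 0.0806) and when Tg + Veh 2 or any 1 of the Non + Veh arrays was left out. The difference of −0.94 between Tg + Dox and Tg + Veh did not pass (adjusted p = 0.0855).

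The rest of the Jak and Stat family and the other inhibitors showed no call in either comparison. Of 8 other Jak and Stat genes, 3 were tested, Tyk2, Stat2 and Stat5b, with differences of 0.02, 0.06 and 0.03 in Tg + Veh over Non + Veh. Of 14 other inhibitors, which include the Socs, Pias and phosphatase genes, 10 were tested, and their differences ran between −0.07 for Pias1 and 0.13 for Socs7. Their median was 0.0094 in Tg + Veh over Non + Veh and 0.02 in Tg + Dox over Tg + Veh.

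No gene of the branch that leads away from gp130 to Ras and PI3 kinase was called. Of 13 genes listed, 8 were tested, 7 were higher, 5 had an unadjusted p under 0.05 in limma and 0 passed, with a median log2 difference of 0.17 against 0.02 over all genes. Of all genes tested, 59.4% were higher in Tg + Veh than in Non + Veh and 13.6% had an unadjusted p under 0.05. Pik3r1, a regulatory subunit of PI3 kinase, differed by 0.32 (adjusted p = 0.173), Ptpn11, the phosphatase Shp2 that binds gp130, by 0.30 (adjusted p = 0.0936), and Gab1, its docking partner, by 0.27 (adjusted p = 0.120). In Tg + Dox over Tg + Veh the differences of these 3 genes were −0.29, −0.20 and −0.22, and the median of the 8 was −0.11.

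Known targets of Stat3 included the 3 genes with the largest differences among those tested on these pathway lists. Of 25 listed, 11 were tested, and 3 rose in Tg + Veh over Non + Veh: Gfap, Serpina3n and Vim, all genes of reactive astrocytes. The median of the 11 was 0.21, against 0.02 over all genes tested, and 10 of the 11 were higher. Of all genes tested, 59.4% were higher there and 1.86% were called as higher. In Tg + Dox over Tg + Veh, 0 were called and 11 were lower. Their median was −0.15, against −0.02 over all genes tested. Of all genes tested, 43.0% were higher in that comparison and 0.692% were called. Immediate targets such as Bcl3, Cebpd, Pim1 and Timp1 lay below the minimum, with highest values of 4.97, 6.02, 5.87 and 4.58. Below it, Cebpd was at 5.73 to 6.02 on the Tg + Veh arrays used and 5.40 to 5.48 on Non + Veh arrays. Replicate 4 of Tg + Veh was at 5.44. Bcl3 and Timp1 did not separate these groups, and no difference of these genes was tested.

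Gfap was at 12.31, 12.76 and 14.64 on the Tg + Dox arrays, 16.80, 16.45 and 15.41 on the Tg + Veh arrays, 10.94 and 11.16 on the Non + Dox arrays and 11.36, 10.74 and 11.55 on the Non + Veh arrays. It rose by 5.00 on the log2 scale in Tg + Veh over Non + Veh (SE 0.578, adjusted p = 0.00656). Replicate 4 of Tg + Veh was at 13.64, inside the Tg + Dox range, and with it the difference of Gfap was 4.36 (adjusted p = 0.0890). The call of Gfap was kept without the 2 Non arrays low at the tTA insertion (adjusted p = 0.0347), without the filter (adjusted p = 0.0155) and in all 11 fits that left out 1 array. Tg + Dox differed from Tg + Veh by −2.98, with an adjusted p of 0.0582. Tg + Dox 3, the highest Tg + Dox array for Gfap, was also the highest for Osmr and Stat3.

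Serpina3n, a secreted protease inhibitor, was at 13.23, 13.16 and 13.43 on the Tg + Dox arrays, 14.74, 14.68 and 13.80 on the Tg + Veh arrays, 12.56 and 13.35 on the Non + Dox arrays and 12.82, 12.89 and 12.90 on the Non + Veh arrays. It rose by 1.54 in Tg + Veh over Non + Veh (adjusted p = 0.0239), and Vim, another intermediate filament gene, rose by 1.52 (adjusted p = 0.0272). Replicate 4 was at 12.83 for Serpina3n, inside the Non + Veh range, and at 8.20 for Vim, below the other Tg + Veh arrays, and with it the differences were 1.14 (adjusted p = 0.269) and 1.18 (adjusted p = 0.235). Both calls were lost without the 2 Non arrays low at the tTA insertion, at adjusted p of 0.0611 and 0.0923, without the filter, at 0.0523 and 0.0593, and when Tg + Veh 1, Tg + Veh 2 or any 1 of the Non + Veh arrays was left out. The difference of Tg + Dox over Tg + Veh was −1.13 for Serpina3n (adjusted p = 0.0926) and −1.18 for Vim (adjusted p = 0.0928), and neither passed. Cd14, a co-receptor for bacterial lipid of myeloid cells, differed by 0.54 and −0.58 in the 2 comparisons and passed in neither.

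**Figure D3:**
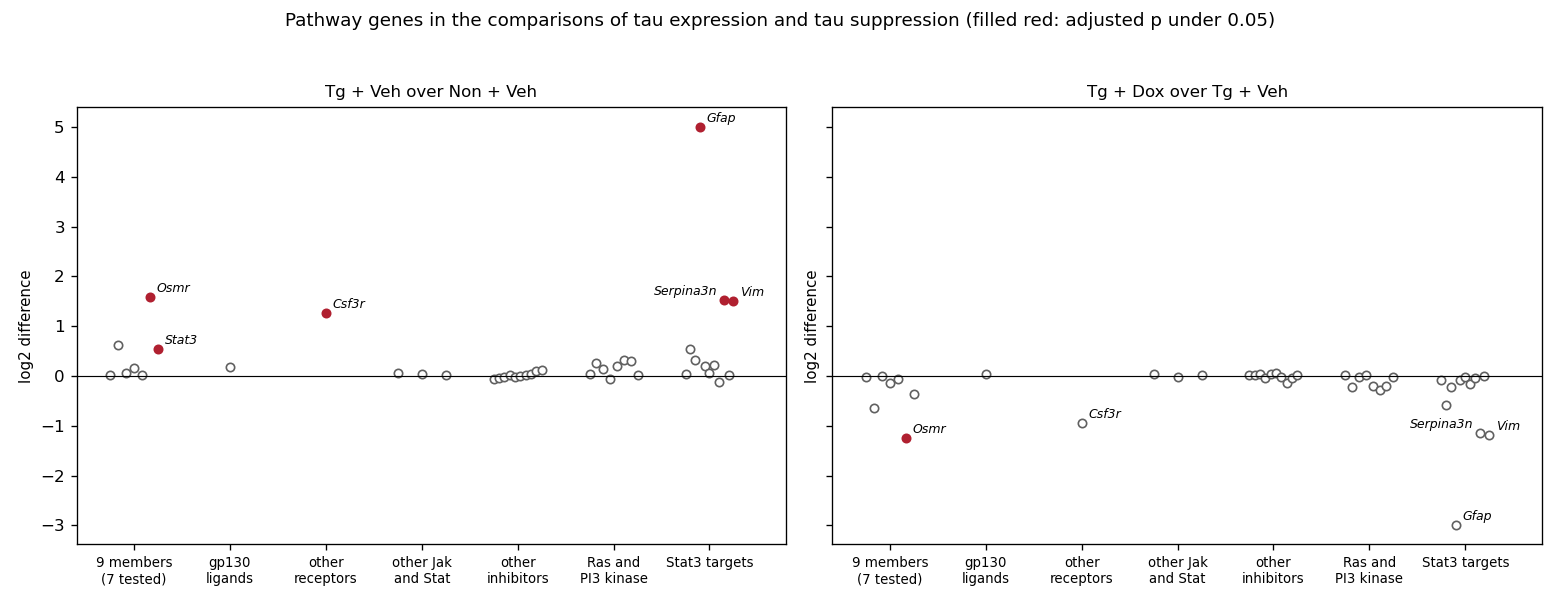
Log2 difference (vertical axis) of each gene tested, by list (horizontal axis), in Tg + Veh over Non + Veh on the left and Tg + Dox over Tg + Veh on the right, filled red where the adjusted p was under 0.05. Osmr, Stat3, Csf3r, Gfap, Serpina3n and Vim rose in Tg + Veh over Non + Veh. Osmr alone of these lists fell in Tg + Dox over Tg + Veh.

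The rise of Osmr and Stat3 went together with markers of glial cells. Of 10 astrocyte markers, 9 were tested and 5 rose in Tg + Veh over Non + Veh (Aqp4, Slc1a2, Slc1a3, Fgfr3 and Sox9). The median log2 difference of the 9 was 0.36, against 0.02 over all genes tested, of which 1.86% were called as higher. The mean log2 signal of the list was 10.02 to 10.19 in Tg + Dox, 10.27 to 10.40 in Tg + Veh, 9.93 to 9.94 in Non + Dox and 9.90 to 10.03 in Non + Veh. Of 10 microglia markers, 7 were tested and 4 rose (Csf1r, Trem2, C1qa and Tyrobp). Trem2 crossed the minimum on Tg + Veh arrays alone and Tyrobp on Tg arrays alone, so their place among the genes tested depended on the arrays where they were high. Without the filter Trem2 kept its call (adjusted p = 0.0162) and Tyrobp lost it (adjusted p = 0.0707), and the median of the 9 microglia markers with a row was 0.83. The mean of that list was 7.18 to 7.52 in Tg + Dox, 7.74 to 8.28 in Tg + Veh, 6.88 to 7.11 in Non + Dox and 6.99 to 7.14 in Non + Veh. In both lists the 3 Tg + Veh arrays used were apart from the other groups. Replicate 4 was not, at a mean of 9.99 for astrocyte markers, inside the Non + Veh range, and 7.42 for microglia markers, inside the Tg + Dox range. Gja1 among the astrocyte markers and P2ry12 and Tmem119 among those of microglia stayed below the minimum, at no more than 6.29, 6.31 and 6.51.

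Of 10 oligodendrocyte markers, 9 were tested. In Tg + Veh over Non + Veh, 5 rose (Mog, Mag, Cnp, Myrf and Cldn11), against 1.86% of all genes called as higher. In Tg + Dox over Tg + Veh, 3 fell (Mog, Mag and Cnp), against 0.613% of all genes called as lower. The mean of the list was 9.99 to 10.26 in Tg + Dox, 10.50 to 10.66 in Tg + Veh, 9.92 to 10.04 in Non + Dox and 10.09 to 10.18 in Non + Veh, with replicate 4 of Tg + Veh at 10.12. With replicate 4 included, 0 markers of these 3 glial lists were called in either comparison. Without the 2 Non arrays low at the tTA insertion, 1 of each list rose in Tg + Veh over Non + Veh and 0 were called in Tg + Dox over Tg + Veh. Without the filter, 2 astrocyte, 2 microglia and 3 oligodendrocyte markers rose in Tg + Veh over Non + Veh and 0 fell in Tg + Dox over Tg + Veh. Leaving out 1 array gave 0 to 6, 1 to 4 and 1 to 5 risen markers of the 3 lists in Tg + Veh over Non + Veh. In the fit of the 11 arrays, no astrocyte or microglia marker was called in Tg + Dox over Tg + Veh. The medians of those tested were −0.18 and −0.78, against −0.02 over all genes tested. Without Tg + Dox 3, 0 astrocyte, 2 microglia (Trem2 and C1qa) and 4 oligodendrocyte markers fell there. Without Tg + Dox 1, 0 of each list did. The part of these cell types in the values of Osmr, Il6st and Stat3 was not tested.

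Markers of neurons, vessels, meninges and choroid plexus were called in neither comparison. Of 10 neuron markers, all tested, 0 were called in either comparison, with medians of −0.16 in Tg + Veh over Non + Veh and 0.05 in Tg + Dox over Tg + Veh and list means between 14.65 and 14.86 over the 11 arrays. Of 9 endothelial and mural cell markers and 4 meningeal fibroblast markers tested, 0 were called. Choroid plexus markers varied widely between arrays, with list means of 5.91 to 6.51 in Tg + Dox, 6.22 to 7.88 in Tg + Veh, 6.17 and 7.55 in Non + Dox and 6.40 to 7.47 in Non + Veh, and 0 of the 4 tested were called. The 8 neutrophil and T cell markers were all below the minimum.

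Over the 11 arrays, Osmr followed Gfap closely, with a Pearson r of 0.979, and with an r of 0.960 once the group means were taken out. Stat3 had an r of 0.972 with Gfap and 0.819 within groups. Il6st departed from that pattern: its r with Gfap was 0.775 over the arrays and 0.166 within groups, and Tg + Dox 3, high for Gfap, was the lowest Tg + Dox array for Il6st. The r between Osmr and Stat3 was 0.966, and 0.800 within groups, while that between Osmr and Il6st was 0.838, and 0.289 within groups. These values describe 11 arrays that share 4 group means, and they carry no test. Tg + Dox 3 stood apart from the other Tg + Dox arrays for both Gfap and Osmr, and r without it was not computed.

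**Figure D4:**
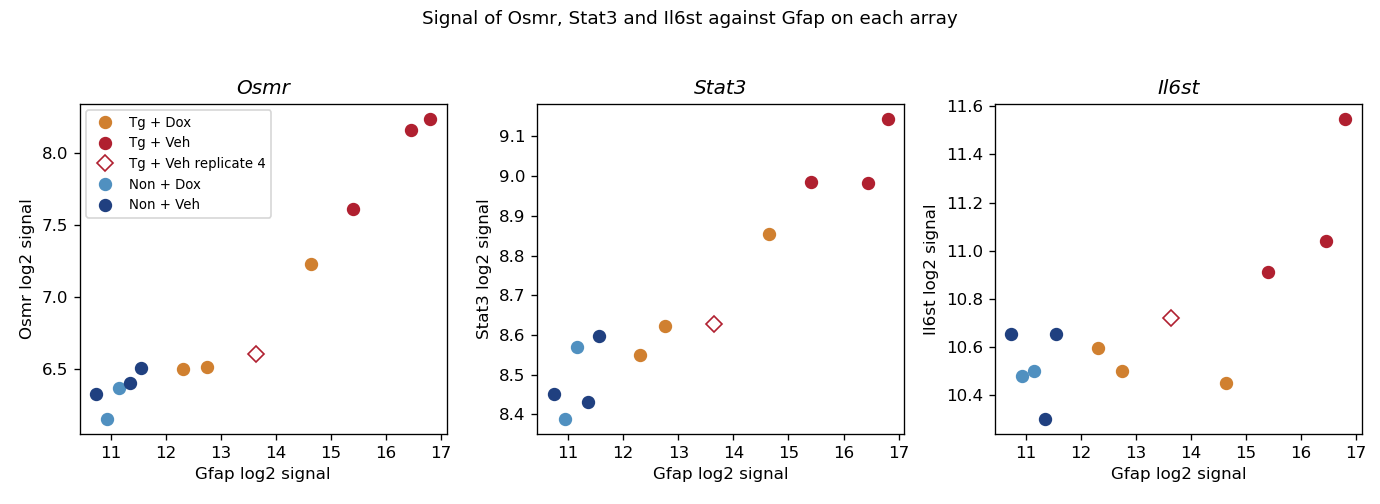
Log2 signal of Osmr, Stat3 and Il6st (vertical axes) against that of Gfap (horizontal axes) on each array, coloured by group, with Tg + Veh replicate 4 as an open diamond. Osmr and Stat3 climb with Gfap on the Tg arrays, Tg + Dox 3 included, whereas Il6st on Tg + Dox 3, at 10.45, stays at the level of the Non arrays.

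The genes tested whose signals were most like that of Osmr over the 11 arrays were Tmem176a, a membrane protein (r = 0.991), C1qa, the complement component made by microglia (r = 0.987), and C4b, a complement component that binds targets (r = 0.986). Those most like Stat3 were Ly86, a secreted partner of an immune receptor (r = 0.990), Csf1r, the receptor that microglia need to survive (r = 0.985), and Anxa3, a protein that binds phospholipid (r = 0.984). Those most like Il6st were Rasgrp3, an activator of Ras proteins (r = 0.957), Lamp1, a lysosomal membrane protein (r = 0.957), and Rcan1, an inhibitor of calcineurin (r = 0.933). Within groups, the r of these genes with their partner was 0.905 to 0.986 for Osmr, 0.918 to 0.937 for Stat3 and 0.779 to 0.900 for Il6st. The genes were picked for their r over the same arrays, so the r within groups is no independent check.

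The mean log2 signal of Stat3 was 8.68 in Tg + Dox, 9.04 in Tg + Veh, 8.48 in Non + Dox and 8.49 in Non + Veh. For Osmr and Stat3 alike, the mean was highest in Tg + Veh, followed by Tg + Dox, Non + Veh and Non + Dox. For both, Tg + Veh was above its neighbour without overlap, while Tg + Dox overlapped Non + Veh and Non + Veh overlapped Non + Dox. The mean of Il6st was 10.52 in Tg + Dox, 11.17 in Tg + Veh, 10.49 in Non + Dox and 10.54 in Non + Veh, with Tg + Veh again apart and the arrays of the other 3 groups overlapping.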

How the data were processed

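The authors deposited log2 signals of 12 Clariom D arrays, made with RMA per the submitters' processing notes. The study annotated transcript clusters with NetAffx, and the platform annotation was used here. Of 72688 rows, 30646 carried 1 symbol, 2168 several and 39874 none listed. Per symbol, the row with the highest mean was kept, and the 12566 genes above the methods' minimum of 6.76 on at least 1 of 11 arrays were tested. One fit in limma 3.58.1 (R 4.3.3) gave each group a mean, without a replicate block, with Benjamini-Hochberg adjustment over all genes tested and a threshold of 0.05. Whether RMA was run with Tg + Veh replicate 4 is not given in the sources used here. The sources used here do not say how many mice gave the RNA of an array, so p-values measure the spread between these samples, and the number of arrays limits the precision. All 9 members were named. Of the other lists, the genes past the test in either main comparison were named, as were those with the largest differences, up to 4 per list. For Osmr, Il6st and Stat3, the 3 most similar genes were named. Osm, Il6, Bcl3, Cebpd, Pim1 and Timp1 were added after their values were seen. Fits of other genes and of glial marker lists under other settings were added after the data were seen. The members and lists were chosen with earlier results of these data known. The fit was tested on simulated data. The mice were 4.75 months old when the feed ended.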

Additional observations from a re-analysis of the deposited data

Results flagged for a closer look

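Among the 4 Tg + Veh arrays, replicate 4 included, Jak1 had 3 arrays at the shared value of 12.01 and replicate 3 apart at 12.03, and Socs3 had 3 arrays at 4.80 and replicate 4 apart at 4.85. Both gaps are small. They passed a cut-off set at a chance of about 1 in 20 groups. Each gap rests on 3 equal values, and how often such a gap arises by chance was not tested. Replicate 4, which was used in no comparison, lay above every Non + Veh array for Osmr at 6.61, Il6st at 10.72, Jak2 at 10.65 and Stat3 at 8.63. That is 4 of the 7 genes tested, against 35.7% of all genes tested. The highest Non + Veh values of these genes were 6.51, 10.65, 10.44 and 8.60. The median log2 signal of replicate 4 was 5.65, against 5.57 to 5.58 on the Non + Veh arrays, and its values were not adjusted for that.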

How the results depend on the processing

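Of the 7 genes tested, 2 were called in Tg + Veh over Non + Veh, 1 in Tg + Dox over Tg + Veh and 1 in Tg over Non across both feeds. All 3 counts were 0 with all 12 arrays and without the 2 Non arrays low at the tTA insertion. With sex as a term or no filter on low signal, the counts of tau suppression and of both feeds were 0, and with arrays centred on their median that of suppression was 0. The methods' two-way test, which calls genes at an unadjusted p of 0.01 or less, gave 2 for both feeds. Leaving out 1 array gave 0 to 2 in each of the 3, and the counts of the other 4 comparisons stayed at 0. Over all genes tested, the counts were 251, 87 and 102. All 12 arrays gave 1, 0 and 1, the fit without the 2 Non arrays 124, 3 and 28, no filter 148, 8 and 45, and sex as a term 190, 34 and 40. The two-way test called 474 for both feeds and 186 for the difference of feed effects. Its threshold is an unadjusted p, so these counts cannot be set against those at an adjusted p under 0.05. Leaving out 1 array gave 64 to 248, 3 to 177 and 5 to 140. In the other 4 comparisons, 0 or 1 genes were called at first, and settings other than the two-way test gave up to 12. The cause was not tested.

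Samples with the same replicate number did not deviate together. Over 15 such pairs r ran between −0.304 and 0.407, with 4 over 0.1, and 2 of 11 arrays correlated best with their own number. With the replicate block, the 3 counts were 1, 0 and 0, and those over all genes 122, 11 and 7. Osmr kept its call in Tg + Veh over Non + Veh (adjusted p = 0.0415 from limma).

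Over all settings, 956 values of the 7 genes kept direction and side of the threshold, 37 lost and 2 gained a call, and 34, of 15 differences, changed sign, none of them called. In Tg + Veh over Non + Veh, centring gave −0.012 for Lifr and −0.019 for Cntfr, all 12 arrays −0.026 for Cntfr, and quantile normalization −0.0083 for Jak1. In Tg + Dox over Tg + Veh, all 12 arrays gave 0.026 for Cntfr, centring 0.0088 for Cntfr and 0.028 for Jak1, and quantile normalization 0.026 for Jak1. Without the 2 Non arrays, Tg + Dox over Non + Veh was 0.039 for Il6st and 0.019 for Cntfr, and Non + Dox over Non + Veh was 0.0044 for Il6st. In Non + Dox over Non + Veh, quantile normalization gave −0.022 for Jak1, and the replicate block and sex as a term each 0.024 for Stat3. Quantile normalization gave 0.048 for Jak1 in the difference of feed effects.

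Leaving out 1 array, Cntfr ran between −0.018 and 0.048 in Tg + Veh over Non + Veh, between −0.069 and 0.051 in Tg + Dox over Tg + Veh and between −0.049 and 0.071 in Tg + Dox over Non + Veh. Jak1 ran between −0.016 and 0.026 in Tg + Dox over Tg + Veh and between −0.0095 and 0.032 in Tg + Dox over Non + Dox. Il6st ran between −0.137 and 0.039 in Tg + Dox over Non + Veh, between −0.015 and 0.056 in Tg + Dox over Non + Dox and between −0.161 and 0.015 in Non + Dox over Non + Veh. Lifr ran between −0.056 and 0.013 in Tg + Dox over Non + Veh. In Non + Dox over Non + Veh, Jak2 ran between −0.131 and 0.024 and Stat3 between −0.106 and 0.076.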
